A study of Mus musculus with 9 samples.

Results

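Long intergenic noncoding RNAs (lincRNAs) of mouse macrophages were followed across 3 states. All cells were bone-marrow-derived macrophages of C57BL/6 mice at postnatal week 8, grown for 6 days with M-CSF (10 ng/ml), the growth factor that drives macrophage differentiation. Control cells then stayed in medium for 6 h. LPS cells received lipopolysaccharide, the bacterial cell wall component sensed by Toll-like receptor 4, at 500 ng/ml for 6 h. The remaining cells received the same LPS together with 50 µM NCT503, an inhibitor of phosphoglycerate dehydrogenase (PHGDH), the enzyme that starts serine synthesis from glycolysis. Each group had 3 RNA-seq libraries, and no group received NCT503 without LPS, so a difference between the LPS groups is one in the presence of LPS. The labels name no animal or culture for a library, so the p-values below speak only for the spread among the 9 libraries, which may be technical.

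Members were chosen by their measured levels in these same libraries: a gene counted if the deposited tables class it as lincRNA and its mean was at least 20 size-factor-scaled reads in 1 of the groups. This took 206 of 1236 lincRNAs, out of 24187 genes. Of the 206, 82 reached 20 in all 3 groups, 43 in control alone, 20 in LPS alone and 22 in LPS with NCT503 alone. A further 12 reached it in control and LPS, 15 in control and LPS with NCT503, and 12 in both LPS groups. Just inside the limit lay Gm20045 (20.2), 2810414N06Rik (20.1) and Lppos (20.1), and just outside it 9230111E07Rik (19.7), 9130604C24Rik (19.5) and Gm28935 (19.1), each by its highest group mean. A member that reached 20 in 1 group alone was picked for being high there, so only the 82 members at 20 in all groups are read beside the background, and the other counts are descriptions.

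LincRNAs are transcribed from their own genes between protein-coding genes, are mostly capped, spliced and polyadenylated, and often stay in the nucleus. Some build nuclear bodies or coat a chromosome, some act on the gene next door, and others are carriers from which microRNAs or small nucleolar RNAs (snoRNAs) are cut. In macrophages, Toll-like receptor signalling induces several of them beside inflammatory genes.

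Mir155hg, Mir142hg and Mir17hg carry microRNAs that are well studied in blood cells, and their mature sequences are shown because the reads of the host are the only sign of them in these libraries; the mature forms were not measured. Sequences are from RefSeq (GRCm38.p6), 5′ to 3′, with the seed, bases 2 to 8, in capitals. Mir155hg on chromosome 16 holds the miR-155 pair, Mir142hg on chromosome 11 the miR-142a pair, and Mir17hg on chromosome 14 a cluster in which miR-17-5p and miR-20a-5p share 1 seed and miR-19a-3p and miR-19b-3p another.
mmu-miR-155-5p: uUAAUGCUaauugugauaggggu
mmu-miR-155-3p: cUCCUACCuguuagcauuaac
mmu-miR-142a-5p: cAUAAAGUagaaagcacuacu
mmu-miR-142a-3p: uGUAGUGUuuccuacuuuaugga
mmu-miR-17-5p: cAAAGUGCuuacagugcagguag
mmu-miR-20a-5p: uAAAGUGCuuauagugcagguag
mmu-miR-19a-3p: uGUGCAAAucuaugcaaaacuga
mmu-miR-19b-3p: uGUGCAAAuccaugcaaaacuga

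Promoters of AW112010 and Ptgs2os2, both far higher with LPS, are shown for the matches they hold to motifs of LPS-activated factors. Each runs from 250 bases before to 50 bases after the RefSeq start, on the minus strand and written in the direction of transcription, and capitals mark the match. AW112010 (chr19:11050517-11050816) has an NF-κB match and Ptgs2os2 (chr1:150164899-150165198) a match to the interferon-stimulated response element (ISRE), both read on the opposite strand. NF-κB matches were in 7 of the 83 member promoters whose RefSeq start lay within 500 bases of the deposited one (8.43%), against 8.18% of 27025 RefSeq promoters, and ISRE matches in 2 of 83 (2.41%) against 3.49%. The cyclic AMP element TGACGTCA was in 5 (6.02% against 1.88%) and the E-box CACGTG in 12 (14.5% against 7.24%). The AP-1 motif TGANTCA was in 7 (8.43% against 7.93%), TATAAA in 7 (8.43% against 14.2%) and the C/EBP-ATF motif TGATGNAA in none (against 4.06%). All motifs were searched on both strands, and none of these shares was tested. The other holders of an NF-κB match went both ways with LPS (log2 fold changes and calls as described below). F730016J06Rik (-3.80) and 4833418N02Rik (-1.72) were called lower and 9330175E14Rik (0.93) higher. Not called were 1810044D09Rik, A530013C23Rik and Gm16892, nor was Gm26797, the other holder of an ISRE match.
AW112010: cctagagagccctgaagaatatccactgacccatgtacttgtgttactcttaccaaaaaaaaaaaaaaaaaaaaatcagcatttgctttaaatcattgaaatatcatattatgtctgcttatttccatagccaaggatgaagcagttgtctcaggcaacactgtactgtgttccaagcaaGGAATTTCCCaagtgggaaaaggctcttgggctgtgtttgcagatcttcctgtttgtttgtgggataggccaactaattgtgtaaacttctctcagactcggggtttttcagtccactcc
Ptgs2os2: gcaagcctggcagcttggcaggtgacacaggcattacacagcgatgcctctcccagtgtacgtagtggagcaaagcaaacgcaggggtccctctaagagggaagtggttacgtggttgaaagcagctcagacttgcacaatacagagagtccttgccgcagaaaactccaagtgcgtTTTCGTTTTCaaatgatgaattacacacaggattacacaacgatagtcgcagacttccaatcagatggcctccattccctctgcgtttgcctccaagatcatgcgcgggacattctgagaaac

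Libraries held 20297324 to 23601429 assigned reads. Below, levels are scaled reads on 1 scale for all 9 libraries, given for replicates 1, 2 and 3 in order, and fold changes are log2 fold changes ± SE of log2(scaled reads + 1) from limma with Benjamini-Hochberg adjusted p over all genes tested (threshold 0.05). The first 2 comparisons were fitted on the deposited tables, whose scales differ slightly from the common one, by at most 0.04 and 0.17 in a member's log2 fold change. LPS libraries had the lower size factors (0.733 to 0.868) and control libraries the higher (1.25 to 1.46) at similar totals, and scaling by total reads (CPM) instead moved the median log2 fold change of all genes with LPS from -0.05 to -0.69. All 11 macrophage markers had reads, while the neutrophil marker Ly6g was listed in neither table. The macrophage markers summed to 342824 to 435492 scaled reads in control, 523552 to 633231 in LPS and 254195 to 331912 with NCT503, where 7 of the 11 were called lower than in LPS. The other 9 neutrophil markers summed to 4485 to 7596, 2794 to 6255 and 481 to 1173, and 7 of them were called lower with NCT503 than in LPS. The 8 T and NK cell markers summed to 3917 to 6579, 2104 to 2634 and 3176 to 5204. Their sum was thus lowest in LPS, as were Malat1, Neat1 and Xist by group mean. Single T and NK cell markers did not share this course. With LPS 2 were called higher and 2 lower, and with NCT503 relative to LPS 1 was called higher and 5 lower. Summed stromal markers spanned 5928 to 27246 scaled reads in the control libraries, 17155 to 36380 in those given LPS alone and 18038 to 46196 in those also given NCT503, and the mast cell, basophil and eosinophil list from 1779 to 2673, 2814 to 4327 and 290 to 303; their part in the results was not tested. In bulk RNA, fewer cells of a type and less RNA per cell cannot be told apart.

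With LPS, 48 of the 206 lincRNAs were called higher and 66 lower, beside 20.5% and 21.4% of all 19975 genes tested. Of the 82 at 20 in all groups, 20 (24.4%) were higher and 23 (28.0%) lower. Protein-coding genes that reached 20 in all groups were higher in 29.1% and lower in 27.1%, so the shares of these 82 lay near those of other abundant genes. Their median log2 fold change was -0.07, against -0.05 over all genes. Under CPM scaling the 206 divided into 30 higher and 107 lower, and the 82 into 10 and 44. Over all genes this scaling gave 2091 higher and 8535 lower of 20314, so falls outnumbered rises there too.

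NCT503 added to LPS gave 54 higher and 34 lower lincRNAs relative to LPS alone, beside 16.9% and 15.7% of 19795 genes. Among the 82, 24 (29.3%) were higher and 10 (12.2%) lower, against 21.4% and 23.7% of abundant protein-coding genes. Their median was 0.18, against 0.08 over all genes. Leaving out 1 library changed these counts: 15 of the 82 were higher without LPS replicate 3. The 10 lower fell to 6, 5 and 6 without LPS replicate 2, LPS replicate 3 and NCT503 replicate 3. Calls over all genes changed too, ranging from 4334 to 7304 in such fits, against 6449 with every library kept.

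Relative to control, the cells given LPS with NCT503 had 61 higher and 60 lower of 204 lincRNAs tested, beside 20.7% and 19.7% of 19930 genes; Gm28347 and Gm27167 had too few reads in both groups to be tested. Of the 82, 28 (34.1%) were higher and 15 (18.3%) lower, against 27.1% and 26.6% of abundant protein-coding genes. Under CPM scaling 17 of the 82 were higher and 24 lower, beside 2448 and 6567 of 20099 genes. This comparison shares its libraries with the other comparisons, and the 2 that hold the LPS libraries share those, so values are set side by side below and no agreement between comparisons is counted.

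**Figure D1:**
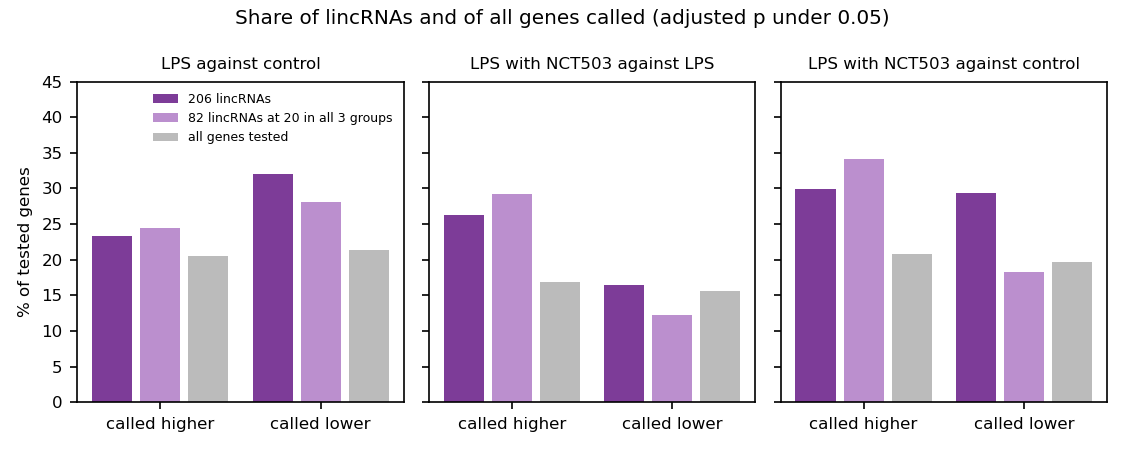
Percent of tested genes called higher or lower (adjusted p under 0.05) in the 3 comparisons, for the 206 lincRNAs, the 82 at 20 in all groups and all genes. With NCT503 against LPS, 29.3% of the 82 were higher and 12.2% lower, and with LPS against control 24.4% and 28.0%.

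The members took a small part of the libraries: 0.335 ± 0.0816% of reads in control, 0.233 ± 0.0284% in LPS and 0.405 ± 0.0190% in LPS with NCT503 (SD, n = 3 libraries each). In the LPS libraries the share was 0.264, 0.208 and 0.227%, and with NCT503 it was 0.407, 0.385 and 0.423%, so these groups did not overlap. The exact permutation test (two-sided) gave p = 0.1 for that difference, the smallest that 3 against 3 libraries allow, p = 0.2 for LPS against control and p = 0.3 for LPS with NCT503 against control. The LPS against control difference was -0.103 percentage points, -0.0350 without Malat1 and -0.0660 without control replicate 1. Between LPS with NCT503 and control it was 0.0693, or 0.0254 without control replicate 3 and 0.106 without control replicate 1. Gm26917, whose reads cannot be told from ribosomal RNA (below), held 0.0262, 0.0335 and 0.0336% of reads in control. It held 0.0299, 0.0514 and 0.0400% in LPS, and 0.0849, 0.155 and 0.111% with NCT503. The differences above include this rise, and none was computed without Gm26917. Malat1, Gm26917, Neat1, AW112010 and Xist held between 58.4% and 69.0% of member reads in control, 68.1% and 70.3% in LPS, and 73.0% and 77.9% with NCT503.

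Per kilobase of the length in the deposited tables, Malat1 led in control (2558 scaled reads per kb), ahead of Gm26917 (1544), AC238811.2 (807) and AW112010 (750.0). With LPS the lead passed to AW112010 (16656 per kb), ahead of Gm26917 (3280.5) and Malat1 (1619). With LPS and NCT503 it was Gm26917 (7847), ahead of Malat1 (3459) and AW112010 (2614). Without division by length, the median member had 32.8, 26.3 and 30.4 scaled reads in control, LPS and LPS with NCT503.

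Malat1 had the highest mean in control, AW112010 in LPS and Gm26917 with NCT503. Malat1 (chr19:5795690-5802672, minus strand), a component of nuclear speckles, had 22964, 19560 and 11059 scaled reads in control, 16588, 8214 and 9122 in LPS, and 28067, 17222 and 27166 in LPS with NCT503. Every library with NCT503 lay above every LPS library, while control overlapped with both. Malat1 was higher with NCT503 than with LPS alone (1.14 ± 0.28, adjusted p = 0.00851), and its value for LPS against control was -0.66 ± 0.30 (adjusted p = 0.102). Neat1 (chr19:5824708-5845478), the scaffold of paraspeckles and 22.0 kb from Malat1, had 9547, 8358 and 5128 reads in control, 6540, 4510 and 4478 in LPS, and 9697, 8865 and 7664 with NCT503. It rose with NCT503 relative to LPS (0.77 ± 0.19, adjusted p = 0.00962), with no overlap between these groups. Both of these calls were lost without LPS replicate 3 (adjusted p = 0.0515 for Malat1 and 0.0621 for Neat1). For LPS against control both were called lower without control replicate 3 (adjusted p = 0.0268 and 0.0146), without LPS replicate 1 (0.0168 and 0.0355) and under CPM scaling (log2 fold changes of -1.36 and -1.24).

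Xist (chrX:103460375-103483217), which coats the inactive X chromosome, had 5129, 4611 and 3006 scaled reads in control, 3490.5, 1683 and 2077 in LPS, and 8391, 4601 and 8194 with NCT503. LPS with NCT503 lay above LPS in all libraries, and NCT503 replicate 2 within the control range. Xist was lower with LPS (-0.84 ± 0.27, adjusted p = 0.0255) and higher with NCT503 than with LPS alone (1.57 ± 0.29, adjusted p = 0.00181). The fall with LPS was lost without control replicate 1 (adjusted p = 0.0951), control replicate 2 (0.0884), LPS replicate 2 (0.101) or LPS replicate 3 (0.112). Other regulators from the same locus were less abundant: Jpx, an activator of Xist, fell with LPS (-1.13 ± 0.34, adjusted p = 0.0188) and had 0.25 ± 0.38 (adjusted p = 0.648) with NCT503, and Ftx, another regulator of Xist, had -1.11 ± 0.42 (adjusted p = 0.0527) and 0.43 ± 0.48 (adjusted p = 0.527). Without LPS replicate 1 Ftx was called lower with LPS (-1.54, adjusted p = 0.00693). Whether the 3 genes differ in their response was not tested. The Jpx call was lost without control replicate 2 (adjusted p = 0.0963) or LPS replicate 2 (0.0539).

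2900097C17Rik, the mouse Norad RNA that binds Pumilio proteins, had 3564, 3208 and 3157 scaled reads in control, 2470, 1876 and 2057 in LPS, and 3988, 2924 and 3571 with NCT503. LPS libraries were the lowest throughout, with a fall in LPS (-0.63 ± 0.15, adjusted p = 0.00547) and a rise with NCT503 (0.71 ± 0.18, adjusted p = 0.0119), and the value against control was 0.07 ± 0.16 (adjusted p = 0.760). The rise was lost without LPS replicate 3 (adjusted p = 0.0579), NCT503 replicate 1 (0.0609) or NCT503 replicate 3 (0.0564). 1700020I14Rik, the Cyrano RNA that directs decay of miR-7, fell with LPS (-0.55 ± 0.20, adjusted p = 0.0421) and had 0.07 ± 0.22 (adjusted p = 0.837) with NCT503. That fall was lost without any 1 of control replicates 1 and 2 or LPS replicates 2 and 3 (adjusted p from 0.0964 to 0.174).

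Over the list of nuclear-retained and chromatin RNAs, members or not, 1 of 15 tested was higher and 7 lower with LPS (beside 20.5% and 21.4% of all genes), and 8 of 15 were higher and none lower with NCT503 relative to LPS, where the list's median was 0.77 against 0.08 over all genes. Besides the members above, Kcnq1ot1 and Airn, imprinted antisense RNAs that silence neighbouring genes, had 2.60 ± 0.35 (adjusted p = 0.000205) and 1.55 ± 0.47 (adjusted p = 0.0257) with NCT503. Against control 2 of 16 were higher and none lower, with a median of 0.32. Genes for paraspeckle proteins, the partners of Neat1, gave 10 higher and none lower of 16 with LPS (62.5% higher, beside 29.1% of abundant protein-coding genes). With NCT503 relative to LPS 1 was higher and 4 lower, where 25% lower stands beside 23.7% of abundant protein-coding genes.

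Gm26917 rose across the groups and was the most abundant member with NCT503. It had 3923, 5535 and 5965 scaled reads in control, 7242, 14713 and 10807 in LPS, and 19565, 34416 and 24386 with NCT503, and no group overlapped with another. Its log2 fold change was 1.06 ± 0.25 (adjusted p = 0.00509) with LPS, 1.28 ± 0.27 (adjusted p = 0.00409) with NCT503 relative to LPS, and 2.33 ± 0.23 (adjusted p = 2.18e-05) relative to control. The rise with LPS was not called under CPM scaling (0.35, adjusted p = 0.160) or quantile normalization (0.14, adjusted p = 0.560). Gm26917 lies at chr17:39843013-39846341, 965 kb from its nearest protein-coding gene in the tables and 13 bases before the start of Rn18s-rs5, which RefSeq annotates as an 18S ribosomal RNA related pseudogene. Reads from ribosomal RNA and from Gm26917 cannot be told apart here.

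**Figure D2:**
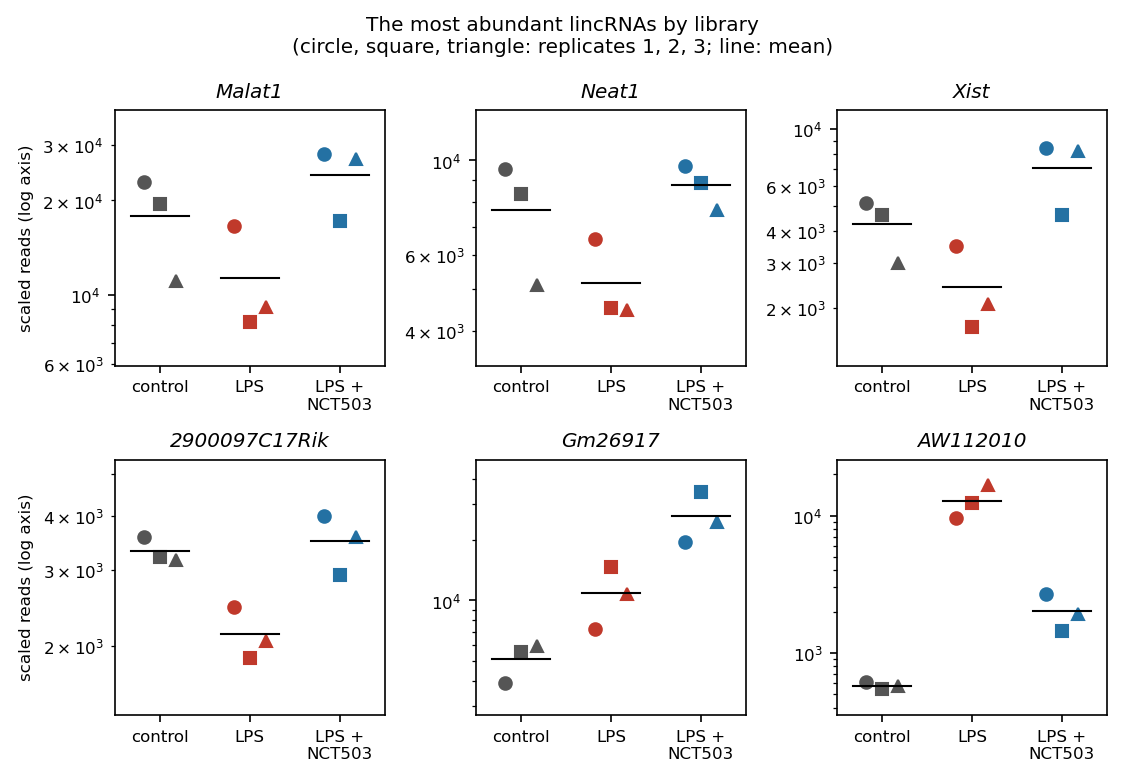
Scaled reads (log axis) of 6 abundant lincRNAs in each library, by group, with the group mean as a line. Malat1, Neat1, Xist and 2900097C17Rik are lowest in LPS, Gm26917 is lowest in control and highest in LPS with NCT503, and AW112010 is highest in LPS.

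The 6 largest rises with LPS among called members whose groups did not overlap were in Mir155hg, Ptgs2os2, 2010110E17Rik, Gm26584, AC168056.3 and Gm28347. AW112010, the most abundant lincRNA in LPS, had a smaller fold. AW112010 (chr19:11047617-11050566), an interferon- and LPS-responsive RNA that is also translated from a non-canonical reading frame, had 610.1, 544 and 579 scaled reads in control, 9642, 12258 and 16574 in LPS, and 2678, 1442 and 1919 with NCT503. The 3 groups were fully apart: it rose with LPS (4.44 ± 0.19, adjusted p = 1.36e-08), was lower with NCT503 than with LPS alone (-2.68 ± 0.26, adjusted p = 1.82e-05) and stayed above control (1.76 ± 0.21, adjusted p = 9.61e-05). Gm28347, 9.98 kb away on the same strand, had 0, 0.700 and 0.801 reads in control, 24.2, 39.5 and 42.0 in LPS, and 0, 1.04 and 1.08 with NCT503. From 82 reads in LPS against 2 in either other group, it was 71.8-fold higher with LPS (95% interval 19.3 to 603, counting error only) and 49.7-fold lower with NCT503 (13.3 to 417). The nearest protein-coding gene of both, Ms4a8a, had means of 2.93, 5.07 and 2.07 scaled reads and was not called.

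Mir155hg, the host of miR-155, had 0, 1.40 and 2.40 scaled reads in control, 725, 371 and 540 in LPS, and 611, 275 and 445 with NCT503. It rose with LPS (8.05 ± 0.45, adjusted p = 9.76e-08), the LPS groups overlapped (-0.32 ± 0.31, adjusted p = 0.459), and its level with NCT503 was above control by 7.71 ± 0.48 (adjusted p = 8.54e-07). Mir142hg, the host of the blood-cell microRNA miR-142, had 62.2, 39.2 and 27.2 reads in control, 88.7, 62.7 and 62.9 in LPS and 52.0, 15.6 and 40.05 with NCT503, with values of 0.79 ± 0.32 (adjusted p = 0.0707) and -1.11 ± 0.41 (adjusted p = 0.0582). Without control replicate 1 the former passed (adjusted p = 0.0172), and without NCT503 replicate 1 the latter (0.0287). Mir17hg, host of the growth-linked miR-17 cluster, was called only relative to control (1.11 ± 0.35, adjusted p = 0.0274), from 24.6, 15.4 and 11.2 reads to 39.8, 33.3 and 35.7, and leaving out any of 4 libraries (control replicates 2 and 3, NCT503 replicates 1 and 3) ended that call (adjusted p from 0.0751 to 0.102). The list of microRNA hosts also held Mirt1 and Mirt2, which are not known as hosts. Of the 6 others, 2 (Mir155hg and Mir22hg) rose and none fell with LPS, and none was called with NCT503 relative to LPS.

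Ptgs2os2 (chr1:150159043-150164948), the lincRNA-Cox2 RNA transcribed near the cyclooxygenase gene Ptgs2, had 2.05, 2.10 and 0.801 scaled reads in control, 188, 180.01 and 232 in LPS, and 508, 246 and 551 with NCT503. It rose with LPS (6.30 ± 0.35, adjusted p = 8.34e-08) and further with NCT503 (1.04 ± 0.29, adjusted p = 0.0180). Ptgs2, 50.8 kb away and tail to tail, rose by 9.82 ± 0.39 with LPS (adjusted p = 8.77e-08) and by 1.32 with NCT503 (adjusted p = 0.00756). Without LPS replicate 1 or 2, or NCT503 replicate 1 or 3, the second rise of Ptgs2os2 was not called (adjusted p from 0.0547 to 0.0939).

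Gm14005, known as Morrbid, restrains the pro-apoptotic neighbour Bcl2l11 (Bim) in short-lived myeloid cells. It had 62.9, 84.0 and 76.9 scaled reads in control, 743, 974 and 889 in LPS, and 675, 577 and 622 with NCT503, a rise of 3.53 ± 0.19 with LPS (adjusted p = 5.93e-08). With NCT503 every library was below every LPS library, at -0.47 ± 0.18 (adjusted p = 0.0668), and without LPS replicate 1 this passed (-0.58, adjusted p = 0.0331). Bcl2l11, 15.8 kb away, moved the other way: means of 2354 scaled reads in control, 975 in LPS and 1794 with NCT503, a fall of 1.27 (adjusted p = 1.97e-05) and then a rise of 0.87 (adjusted p = 0.00234). Within the same locus AL844586.1 had no read in control, 6.91, 12.3 and 3.93 scaled reads in LPS and 33.6, 8.32 and 33.6 with NCT503, at least 10.5-fold and at least 34.7-fold above a control floor of 3 reads over the group. Gm14010, also inside the span of Gm14005 and on the opposite strand, rose with LPS by 2.86 on the log2 scale.

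**Figure D3:**
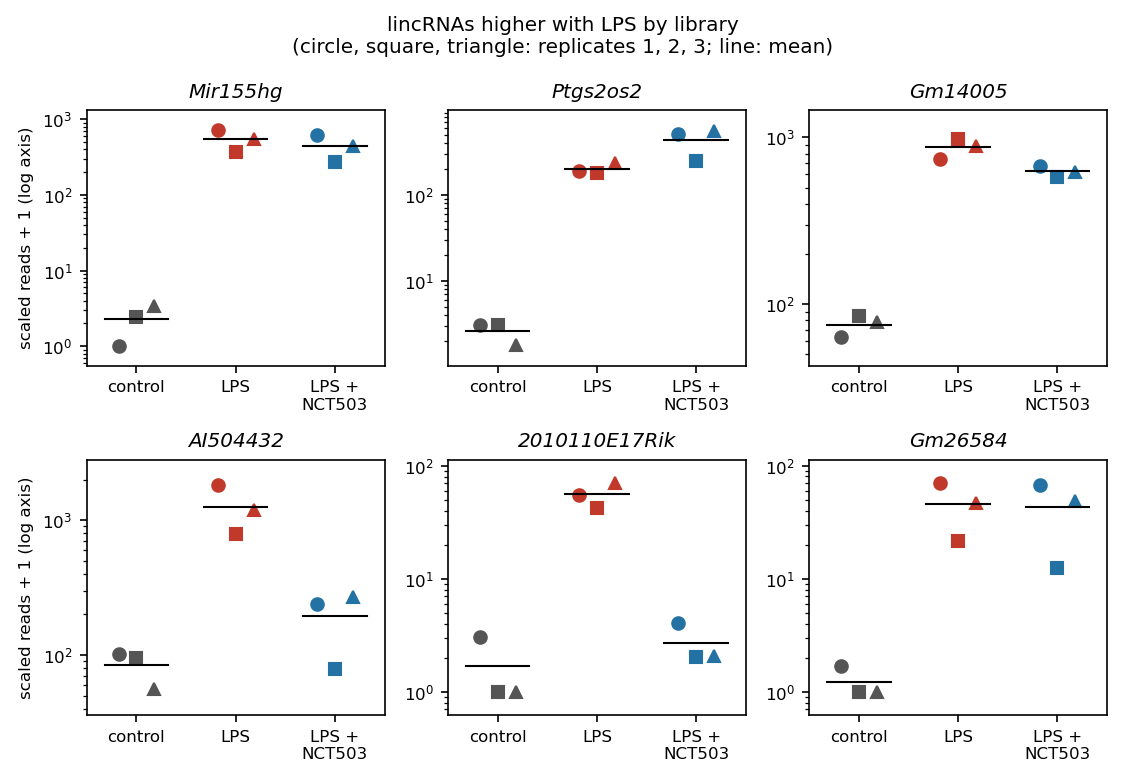
Scaled reads + 1 (log axis) of 6 lincRNAs higher with LPS, by library and group, with the group mean as a line. Mir155hg, Ptgs2os2, Gm14005 and Gm26584 stay high with NCT503. AI504432, 2010110E17Rik and Gm14005 are lower than with LPS alone in every library, Gm14005 by the least and without a call.

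A further set rose with LPS and was lower with NCT503 than with LPS alone. AI504432 had 101, 93.8 and 54.5 scaled reads in control, 1817, 786 and 1181 in LPS and 236, 78.0 and 268 with NCT503. It rose with LPS (3.88 ± 0.31, adjusted p = 1.57e-06) and fell with NCT503 (-2.79 ± 0.43, adjusted p = 0.000491), and its value against control was 1.08 ± 0.45 (adjusted p = 0.0902), or 1.64 (adjusted p = 0.000448) without NCT503 replicate 2. Kcna3, the gene of the potassium channel Kv1.3 and 1.43 kb away, had means of 129.8, 1587 and 289 scaled reads, with 3.67 (adjusted p = 6.97e-07) and -2.50 (adjusted p = 3.83e-05).

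2010110E17Rik and Gm27167 lie 15.9 kb apart on 1 strand, head to head with N4bp1, a suppressor of inflammatory signalling. The former, 0.430 kb from N4bp1, had 2.05, 0 and 0 scaled reads in control, 54.1, 40.9 and 69.5 in LPS and 3.06, 1.04 and 1.08 with NCT503. This was 75.9-fold higher with LPS (3 reads against 130; interval 25.4 to 373), and with NCT503 the log2 fold change was -4.31 ± 0.44 (adjusted p = 2.62e-05). Gm27167 had 1 read in control, 52 in LPS and 2 with NCT503, 91.1-fold higher (15.6 to 3665) and 31.5-fold lower (8.30 to 267). N4bp1 rose by 2.49 with LPS (adjusted p = 1.70e-07) and fell by 1.82 with NCT503 (adjusted p = 2.01e-05). AC168056.3, with no read in control, had 34.6, 15.001 and 30.2 in LPS, at least 37.4-fold higher, and 8.15, 3.12 and 11.9 with NCT503, a fall of 1.70 ± 0.50 (adjusted p = 0.0228). That fall was lost without LPS replicate 1 (adjusted p = 0.0837) or LPS replicate 3 (0.0875). With NCT503, AC168056.3 was still at least 10.6-fold above a control floor of 3 reads over the group. A230028O05Rik rose with LPS (1.57 ± 0.35, adjusted p = 0.00336) and fell with NCT503 (-2.78 ± 0.38, adjusted p = 0.000209), its rise not being called under CPM scaling (0.90, adjusted p = 0.0744). Gm26584 instead stayed high, from 1 read in control to scaled reads of 69.1, 20.5 and 45.9 in LPS and 66.3, 11.4 and 47.6 with NCT503; it overlaps Slc7a2, a cationic amino acid transporter gene on the opposite strand, which rose by 5.48 with LPS (adjusted p = 2.01e-09), and without a known strand setting their reads may be shared.

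Other members were high in control and nearly lost with LPS. Gm5086 (chr13:97559971-97583996) had 108, 121 and 95.3 scaled reads in control, 0, 1.36 and 0 in LPS, and 30.6, 17.7 and 23.8 with NCT503. From 450 reads to 1 it was 257-fold lower with LPS (interval 45.9 to 10171), with NCT503 it was 56.9-fold higher than that (9.88 to 2280.0), and it stayed below control (-2.15 ± 0.28, adjusted p = 0.000148). 5031425F14Rik fell from 71.1, 53.2 and 43.3 to 3.46, 1.36 and 1.31 (-4.27 ± 0.42, adjusted p = 9.44e-06) and had 11.2, 11.4 and 14.1 with NCT503 (2.12 ± 0.48, adjusted p = 0.00582). Gm29291, 93.7 kb from the glutamine synthetase gene Glul, had 39.6, 48.3 and 34.5 in control, 0, 0 and 2.62 in LPS and 4.08, 0 and 1.08 with NCT503. Glul fell too, by 3.50 (adjusted p = 7.98e-09), and rose with NCT503 by 1.94 (adjusted p = 5.84e-06), while Gm29291 had 2 and 5 reads in the LPS groups and a value of 0.47 ± 0.72 (adjusted p = 0.642). AC125351.1, 0.958 kb from the kinase gene Map3k9, had 25.3, 40.6 and 33.7, then 1.15, 0 and 2.62, then 6.12, 8.32 and 1.08 reads. Map3k9 fell by 2.57 with LPS (adjusted p = 7.04e-06) and rose by 2.14 with NCT503 (adjusted p = 0.000120). 5930430L01Rik was 70.8-fold lower with LPS (124 reads against 1; interval 12.5 to 2819). F730016J06Rik, AC132332.1, 4930555A03Rik and CT009536.1 fell with LPS by 3.80, 2.40, 2.70 and 3.20 on the log2 scale and were not called with NCT503 against LPS. Mirt1 fell from 31.4, 24.5 and 13.6 to 4.61, 2.73 and 2.62 (-2.44 ± 0.45, adjusted p = 0.00107) and rose with NCT503 (1.95 ± 0.53, adjusted p = 0.0160), a rise that was lost without LPS replicate 2 or 3 or NCT503 replicate 1 or 3 (adjusted p from 0.0528 to 0.0822).

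Members with large rises with NCT503 relative to LPS are described next. The LPS libraries enter both comparisons, so a low level in LPS goes into a fall with LPS and a rise with NCT503 alike. Over all genes tested in both, 1427 were lower with LPS and then higher with NCT503, and 422 were higher in both. Gm13391 (chr2:6472000-6478619) had 153, 149.8 and 133 scaled reads in control, 21.9, 16.4 and 28.8 in LPS, and 883, 678 and 824 with NCT503, all groups apart. It fell with LPS (-2.68 ± 0.27, adjusted p = 1.11e-05), rose with NCT503 (5.11 ± 0.25, adjusted p = 2.63e-07) and ended above control (2.44 ± 0.17, adjusted p = 2.14e-06). Its nearest protein-coding gene, Usp6nl at 25.6 kb, moved by -0.72 (adjusted p = 0.00969) and 0.64 (adjusted p = 0.0522). Gm14461 had 115, 195 and 207, then 25.3, 32.7 and 27.5, then 297, 545 and 338 reads, with -2.51 ± 0.28 (adjusted p = 2.42e-05) and 3.69 ± 0.27 (adjusted p = 3.23e-06). RefSeq classes Gm14461 as protein coding.

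AC159210.1 had 3.42, 4.90 and 3.21 reads in control, 5.76, 4.09 and 3.93 in LPS, and 148, 54.1 and 128 with NCT503, a rise of 4.16 ± 0.42 (adjusted p = 2.51e-05). Gm17275 had 41.7, 28.0 and 20.8, then 63.4, 27.3 and 20.98, then 457, 178 and 363 reads (3.17 ± 0.43, adjusted p = 0.000198). It overlaps H3f3a, which codes for histone H3.3, on the opposite strand; H3f3a rose by 0.51 (adjusted p = 0.0310). 4930512J16Rik rose from 1.15, 2.73 and 1.31 in LPS to 74.4, 6.24 and 87.7 with NCT503 (3.71 ± 0.81, adjusted p = 0.00470), NCT503 replicate 2 being far below the other two. Its value against control was 0.69 ± 0.92 (adjusted p = 0.591), or 1.86 (adjusted p = 0.00140) without that library.

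Pvt1, which neighbours the growth regulator Myc, had 20.5, 15.4 and 16.0 scaled reads in control, 8.06, 1.36 and 11.8 in LPS, and 84.6, 51.0 and 94.2 with NCT503. It rose with NCT503 relative to LPS (3.49 ± 0.56, adjusted p = 0.000630) and relative to control (2.05 ± 0.32, adjusted p = 0.000504). With LPS alone it had -1.48 ± 0.59 (adjusted p = 0.0631), which passed without LPS replicate 3 (-1.98, adjusted p = 0.0327). Myc, 47.6 kb away, rose with LPS (0.78, adjusted p = 0.0165) and again with NCT503 (1.36, adjusted p = 0.000651). H19, an imprinted growth-linked RNA, had 10.2, 202 and 5.41 reads with NCT503 and at most 5.47 in the 6 other libraries, so that 1 library set its mean; it was not called (2.59 ± 1.00, adjusted p = 0.0691), except without NCT503 replicate 3 (3.55, adjusted p = 0.0236). In that library, NCT503 replicate 2, the stromal marker sum was also the highest of the 9, and its part in the H19 value was not tested.

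**Figure D4:**
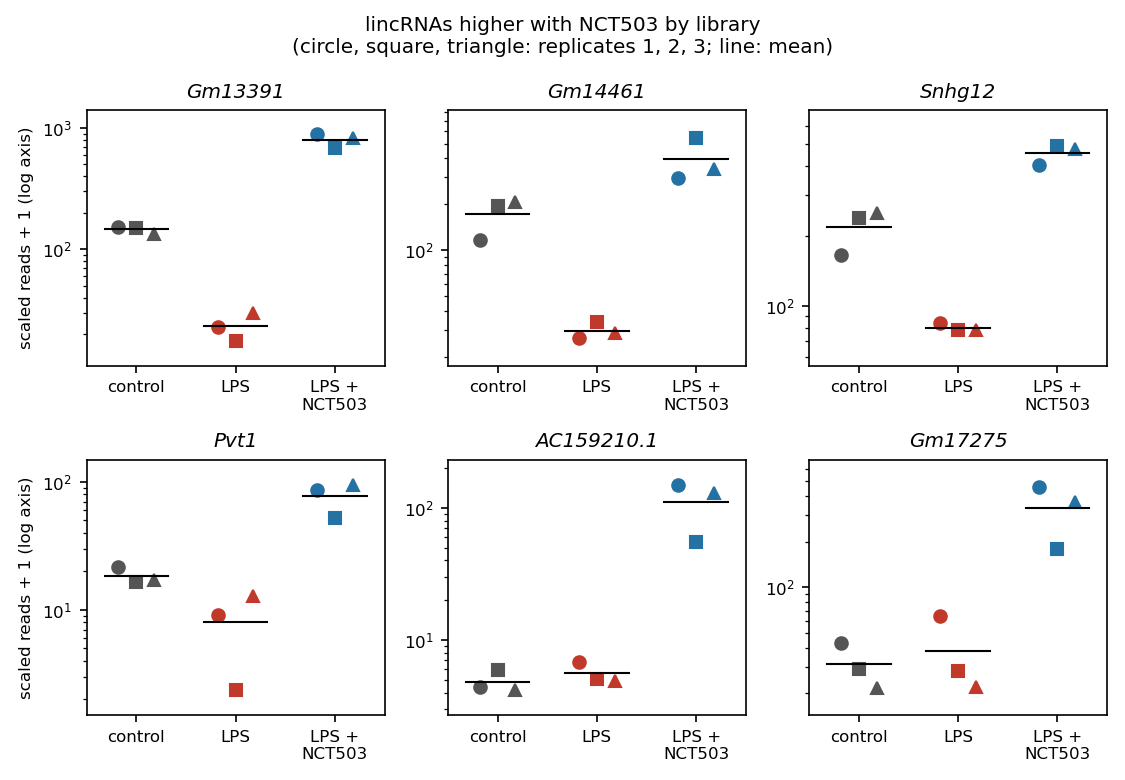
Scaled reads + 1 (log axis) of 6 lincRNAs higher with NCT503 than with LPS alone, by library and group, with the group mean as a line. In all 6, each NCT503 library lies above each LPS library, and Gm13391, Gm14461 and Snhg12 are lowest in LPS.

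Of the 4 members that host snoRNAs, the guides of ribosomal RNA modification, Snhg12 and Epb41l4aos rose with NCT503 relative to LPS and Snhg20 fell. Snhg12 had 165, 239 and 249.99 scaled reads in control, 82.9, 77.7 and 77.4 in LPS, and 406, 490.1 and 475 with NCT503, all apart. It fell with LPS (-1.42 ± 0.22, adjusted p = 0.000270), rose with NCT503 (2.51 ± 0.20, adjusted p = 4.78e-06) and ended above control (1.08 ± 0.20, adjusted p = 0.00156). Epb41l4aos had 192, 271 and 276, then 158, 239 and 194, then 393, 419 and 393 reads, and rose with NCT503 (1.05 ± 0.21, adjusted p = 0.00259). Snhg6 had 0.52 ± 0.19 (adjusted p = 0.0555) with NCT503 against LPS and was higher than control (0.75 ± 0.21, adjusted p = 0.0147), though not under CPM scaling (0.30, adjusted p = 0.214). Snhg20 went the other way, from 168, 184 and 148 in LPS to 64.2, 133 and 87.7 (-0.86 ± 0.28, adjusted p = 0.0339), a call lost under CPM scaling and without any 1 of the LPS libraries, NCT503 replicate 1 or NCT503 replicate 3 (adjusted p from 0.0680 to 0.139).

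The list of noncoding snoRNA hosts also held Rpph1, the RNA of ribonuclease P, which is not one. Of the 17 others, 4 of them members, 2 were higher and 5 lower with LPS, beside 20.5% and 21.4% of all genes. With NCT503 relative to LPS 10 of the 17 were higher and 1 lower (16.9% and 15.7% of all genes), with a median of 0.87 against 0.08 over all genes, and relative to control 10 were higher and 2 lower (20.7% and 19.7%). Gas5 and Zfas1, hosts that the tables do not class as lincRNA, fell with LPS by 0.89 and 0.85 (adjusted p = 0.000558 and 0.00159) and rose with NCT503 by 1.27 and 1.21 (adjusted p = 0.000143 and 0.000221). Snhg5 fell by 1.09 (adjusted p = 0.00298) and rose by 2.10 (adjusted p = 6.24e-05). Factors of nonsense-mediated decay, the pathway that degrades many spliced snoRNA-host transcripts, had 11 higher and 2 lower of 17 with LPS (64.7% and 11.8%, beside 29.1% and 27.1% of abundant protein-coding genes). With NCT503 relative to LPS 2 were higher and 5 lower (29.4% lower, beside 23.7%). Targets of ATF4, the transcription factor of the amino acid response, had 14 higher and 1 lower of 20 with LPS and 16 higher and none lower with NCT503 relative to LPS (70% and 80% higher, beside 29.1% and 21.4% of abundant protein-coding genes).

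Among noncoding RNAs described in macrophages or innate immunity, 9 of 21 tested were higher and 5 lower with LPS (42.9% and 23.8%, beside 20.5% and 21.4% of all genes). With NCT503 relative to LPS 7 of 22 were higher and 2 lower (31.8% and 9.09%, beside 16.9% and 15.7%), and relative to control 11 of 21 were higher and 3 lower (52.4% and 14.3%, beside 20.7% and 19.7%). Inflammatory NF-κB targets, all protein-coding, gave 18 of 18 higher with LPS, beside 29.1% of abundant protein-coding genes. With NCT503 relative to LPS 4 were higher and 8 lower (22.2% and 44.4%, beside 21.4% and 23.7%). Among p53 targets, 8 of 16 were higher and 5 lower with LPS (50% and 31.3%, beside 29.1% and 27.1% of abundant protein-coding genes). The p53-linked member Trp53cor1, known as lincRNA-p21, was called in no comparison (adjusted p = 0.583, 0.188 and 0.306; lower with LPS under CPM scaling, -0.96), while Cdkn1a (p21), 12.02 kb away and head to head, rose with LPS by 3.35 (adjusted p = 1.22e-07) and fell by 0.73 with NCT503 (adjusted p = 0.0102). Lncpint, another p53-linked RNA, rose with LPS (1.45 ± 0.45, adjusted p = 0.0231) from 9.56, 4.20 and 3.21 to 16.1, 15.001 and 15.7 reads, a call lost under CPM scaling, with DESeq2 (adjusted p = 0.0790) and without control replicate 2 or 3 or any 1 LPS library (adjusted p from 0.0503 to 0.0832).

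Gm17705 and Gm16194 were not called between LPS and control and were lower with NCT503. Gm17705 had 34.8, 17.5 and 16.0 reads in control, 44.9, 39.5 and 27.5 in LPS and 5.10, 3.12 and 4.33 with NCT503 (-2.84 ± 0.39, adjusted p = 0.000236). Without control replicate 1 it was called higher with LPS (1.09, adjusted p = 0.0305). Nearby Prrc2a and Aif1, the gene of the macrophage protein Iba1, fell by 1.21 and 0.92 with NCT503 (adjusted p = 0.000913 and 0.00146). Gm16194 had 40.3, 35.7 and 22.4, then 20.7, 19.1 and 43.3, then 2.04, 4.16 and 4.33 reads (-2.57 ± 0.47, adjusted p = 0.00147), and Rab44, 1.25 kb away, fell by 2.09 (adjusted p = 0.000280).

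Beside their neighbours, 117 members lay within 10 kb of a protein-coding gene and 36 overlapped one, and the median gap to the nearest was 5157 bases. The nearest gene was head to head with 67 members, tandem with 73, tail to tail with 30, and overlapped 31 on the opposite and 5 on the same strand. With LPS, 54 of 200 pairs in which both were tested were called in the same direction (27%) and 23 in opposite directions (11.5%). Protein-coding genes at 20 in a group, paired with their own nearest protein-coding gene, gave 20.5% and 10.5%. With NCT503 relative to LPS the members had 40 of 203 pairs in the same direction (19.7%) and 9 opposite (4.43%), against 13.4% and 5.27%. Relative to control they had 64 of 198 (32.3%) and 14 (7.07%), against 18.003% and 9.25%. These shares are descriptions without a test. The members here include those that reached 20 in some groups only, and no pairs were counted for the 82 at 20 in all groups. The member shares are therefore not read as differing from those of protein-coding genes. By GENCODE M21, 75 members share exonic bases with another gene, 33 of them with a protein-coding gene, and no strand setting for the counting is given in the sources used here, so the values of these 75 are uncertain; among members with no such overlap the same-direction share was 31.0% (39 of 126), 20.9% (27 of 129) and 30.4% (38 of 125).

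Pairs in opposite directions included abundant members. Frmd8, a cofactor of the TNF sheddase complex 4.22 kb from Neat1, had means of 1829.9 scaled reads in control, 3644 in LPS and 852 with NCT503, a rise of 1.00 (adjusted p = 0.000785) and a fall of 2.11 (adjusted p = 2.88e-05). Chic1, 64.3 kb from Xist, rose with LPS by 2.14 (adjusted p = 0.000481) and fell with NCT503 by 1.05 (adjusted p = 0.0160). Plxna1, a semaphorin receptor gene 30.6 kb from 4930512J16Rik, rose by 0.60 with LPS (adjusted p = 0.0253), where the lincRNA fell, and by 1.28 with NCT503 (adjusted p = 0.000326), where it rose.

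**Figure D5:**
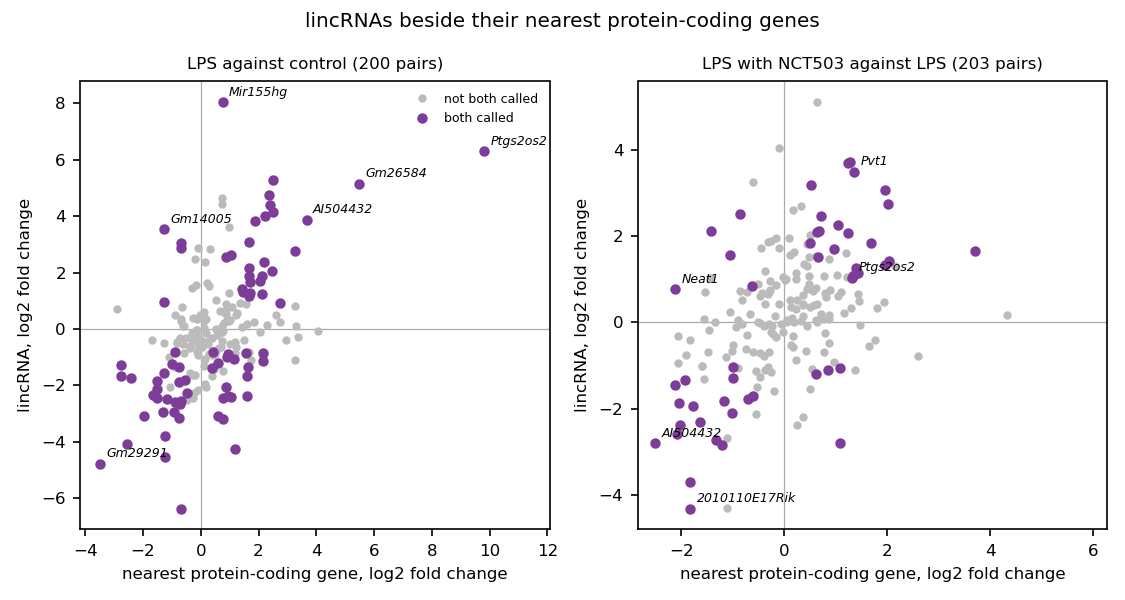
Log2 fold change of each lincRNA (vertical axis) against that of its nearest protein-coding gene (horizontal axis), with LPS against control (200 pairs) and NCT503 with LPS against LPS (203 pairs). Filled purple points are pairs in which both genes were called; 54 and 40 of these lie in the same direction and 23 and 9 in opposite directions.

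The genes most like the 5 most abundant members, by Pearson r of log2(scaled reads + 1) over the 9 libraries among 21434 genes, were Xpo4, Ralgapa1 and Rb1cc1 for Malat1 (r = 0.995, 0.989 and 0.985), and Chmp4c, Necab2 and Myh7b for Neat1 (0.956, 0.955 and 0.955). For Xist they were Atp8b4, Camsap2 and Srek1 (0.996, 0.992 and 0.992), for AW112010 Ppp1r15b, Daxx and Parp12 (0.998, 0.997 and 0.997), and for Gm26917 Igsf8, Psmd8 and Eif4ebp1 (0.991, 0.987 and 0.986). The points share groups and scaling, so r describes the likeness of the 9 values alone.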

How the data were processed

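RNA-seq of 9 macrophage libraries was used. TopHat2 and the mm10 build are named per the submitters' processing notes. Which counter, annotation and strand setting were used is not stated in the files or labels. Signal per the authors' deposited tables is reads divided by a size factor, per library. Deposited log2 fold changes and p-values were not used. Whole reads were recovered for 100% of values (tolerance 0.001), a unit the plan had not foreseen. LPS reads were equal in both tables, so the 9 libraries were joined over 21434 shared genes with median-of-ratios size factors. A gene entered the test from a group mean of 1 upward, in limma-trend (3.58.1, under R 4.3.3) on log2(scaled reads + 1), adjusted over all genes. On recovered reads, edgeR (4.0.16) called 7769, 6098 and 7548 genes in the 3 comparisons, where limma called 8355, 6449 and 8061; DESeq2 (1.42.0) was also run. The procedure was tested on simulated data.

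Members, gene lists and tests were chosen with earlier results of these data known. Lists of noncoding RNAs leave out entries that the tables class as protein coding, and the counts of host RNAs leave out Rpph1, Mirt1 and Mirt2, choices made after their values were seen. Named members are those in the lists of noncoding RNAs, the 6 largest rises and falls of each comparison among called members whose groups do not overlap, the 5 most abundant, and their protein-coding neighbours. AC238811.2, Gm14010, Kcnq1ot1, Airn, Gas5, Zfas1 and Snhg5 were chosen after their values were seen. Intervals for groups of 3 or fewer reads are exact binomial (95%) and cover counting error only; a group with no read is set to a floor of 3 reads. Coordinates are those of the tables, 1-based. Of the 206 members, 204 are in GENCODE M21, 186 with the same ends, and M21 classes 189 as lincRNA. RefSeq classes some members as protein coding, among them Gm14461, Tmem250-ps, 1810058I24Rik and Zfp469. Alternatives were a pseudocount of 0.1, no filter, other scalings, edgeR, DESeq2, a replicate block, 1 fit of all libraries, a level of 10 or 50, and leaving out each library; the restriction to members without exon overlap and the counts for the 82 members were added after seeing the data.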

Additional observations from a re-analysis of the deposited data

How the results depend on the processing

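Scaling was the choice that mattered most. CPM scaling called 2091 of 20314 genes higher and 8535 lower with LPS. With NCT503 relative to LPS it called 4405 and 2136 of 20122, and relative to control 2448 and 6567 of 20099. Under CPM scaling members called higher and lower with LPS were 30 and 107 (10 and 44 of those at 20 in all groups), 6 of the latter were lower with NCT503 relative to LPS, and 40 members (17 of those at 20 in all groups) were higher and 24 of those at 20 in all groups lower than control; Snhg6 turned to -0.46 with LPS. Quantile normalization turned 2900097C17Rik to -0.44 relative to control. A level of 50 left 25 higher and 33 lower with LPS, 35 and 12 with NCT503 relative to LPS, and 35 and 24 relative to control, from fewer members. No share over other genes at 50 is set beside these counts, which are descriptions. Members without exon overlap, also fewer, gave 20 lower with NCT503 relative to LPS, 38 lower than control and 38 same-direction neighbour pairs relative to control. Without Malat1 the share of reads rose by 0.108 percentage points with NCT503 relative to LPS, and that for LPS against control was -0.0350. Gm26917, with 0.0262 to 0.0336% of reads in control and 0.0849 to 0.155% with NCT503, was kept in these shares. How they would change without it was not computed.

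Leaving out 1 library gave 43 to 48 higher and 50 to 71 lower with LPS, 38 to 59 and 23 to 34 with NCT503 relative to LPS, and 45 to 68 and 42 to 57 relative to control. Over all genes, such fits called 6432 to 8553, 4334 to 7304 and 5808 to 9141 in either direction. For members at 20 in all groups the ranges were 19 to 21 and 17 to 25, 15 to 26 and 5 to 10, and 22 to 30 and 11 to 15. The labels do not say whether replicate numbers pair the libraries. Same-numbered deviations correlated from -0.098 to 0.181 and differently numbered ones from -0.238 to 0.189, which cannot decide it. Replicate 1 was the highest library of each group for Malat1, Neat1, Xist and 2900097C17Rik, and the lowest for Gm26917. With replicates as a block, the falls of Malat1 and Neat1 with LPS had adjusted p = 6.67e-06 and 0.000242 (limma). With a replicate block 49 members were higher and 75 lower with LPS, 64 and 41 with NCT503 relative to LPS, and 63 and 58 relative to control. The share over all genes in this fit is not given here, so these counts are not read as results about the members. Among the named members the block added calls for Malat1, Neat1, Mir142hg, Pvt1 and Ftx with LPS. It also added Gm14005, Snhg6, Mir142hg and H19 with NCT503 relative to LPS (adjusted p = 0.0194, 0.00942, 0.00817 and 0.0272, limma). Relative to control it added Xist (adjusted p = 0.0197, limma) and ended the call of A230028O05Rik (adjusted p = 0.0504, limma). Few reads limit the members near 20.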

Other observations

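Within each group the library lowest in Malat1 was also lowest in Xist and highest in Gm26917: control replicate 3, LPS replicate 2 and NCT503 replicate 2. From the lowest to the highest library Malat1 differed 2.08-fold in control, 2.02-fold in LPS and 1.63-fold with NCT503, Xist 1.71-fold, 2.07-fold and 1.82-fold, and Gm26917 1.52-fold, 2.03-fold and 1.76-fold. 2900097C17Rik was lowest in the same 3 libraries but differed only 1.13-fold, 1.32-fold and 1.36-fold. Neat1 was lowest in control replicate 3, LPS replicate 3 and NCT503 replicate 3.

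Some members lie within 50 kb of one another. With NCT503 relative to LPS, Gm37168 had 3.25 and D730003I15Rik, 41.0 kb away on the same strand, 0.36. Gm38102 and 4932422M17Rik, 1.24 kb apart, had -0.97 and -1.07 with LPS and -1.40 and -2.01 with NCT503 relative to control. These pairs were chosen after their values were seen, and their differences were not tested.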
